A study of Mus musculus with 8 samples.

Results

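The genes described are 9 receptors and 1 ligand of the tumor necrosis factor (TNF) superfamily, chosen by gene symbol: *Tnfrsf1a*, *Tnfrsf1b*, *Fas*, *Cd40*, *Tnfrsf9*, *Tnfrsf10b*, *Tnfrsf11b*, *Tnfrsf12a*, *Tnfrsf21* and *Tnfsf11*. They are 10 of the 54658 gene symbols in the deposited count table, and all 10 were among the 14404 genes tested, which had a CPM (counts scaled to the same library size) above 1 in at least 4 samples. RNA-Seq was performed on primary articular chondrocytes, the cells that make and maintain joint cartilage, isolated with collagenase P from femoral-head cartilage of wild-type mice aged 3 weeks. Of the 8 samples, 4 received the proinflammatory cytokine interleukin-1β (IL-1β) at 1 ng/mL and 4 received vehicle, each for 24 h, and the groups shared the same culture medium with fetal bovine serum. The labels give neither the strain nor the sex, and do not say whether the replicates were separate cultures or animals, so p-values measure the spread between these samples, which may be technical.

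Receptors of this superfamily bind trimeric ligands outside the cell and recruit adaptor proteins inside it. Receptors with a death domain can assemble complexes that activate caspases, while those without one bind TNF receptor-associated factors (TRAFs), which lead to NF-κB and MAP kinase signaling. The ligand RANKL, encoded by *Tnfsf11*, drives osteoclast formation, and osteoprotegerin, encoded by *Tnfrsf11b*, is a secreted decoy receptor that binds RANKL.

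Total counts ranged from 10992355 to 17456063 per sample, and 3 counts, the lowest number treated as detectable, corresponded to 0.172 to 0.273 CPM. Normalization factors (TMM) lay between 0.984 and 1.01, so abundances are given as TMM-scaled CPM, with the mean ± SD (n = 4). The row Gm26917 held 13.2% to 14.6% of the counts of each sample. All 8 chondrocyte markers examined were detected, and their summed abundance was 4176 to 4587 CPM in the IL-1β group and 16085 to 16696 CPM in the vehicle group, with all 8 lower past both thresholds. In bulk samples, fewer cells of a type and less RNA per cell cannot be told apart.

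IL-1β was followed by a higher abundance of the TRAF-binding receptors *Tnfrsf1b*, *Cd40* and *Tnfrsf9* and of the death receptor *Fas*, and by a lower abundance of the ligand *Tnfsf11*. A gene was called when edgeR's quasi-likelihood test gave it an adjusted p-value under 0.05 and a log2 fold change outside the range of -1 to 1. By this rule 4 of the 10 genes were called higher and 1 was called lower, where 2.86% of all genes tested were called higher, 2.35% were called lower and 5.21% were called in either direction. Without the fold threshold, 5 of the 10 were higher, 3 were lower and 2 did not pass, and 40.2% of all genes tested passed. In 7 of the 10 genes, 4 higher and 3 lower, the 4 IL-1β values and the 4 vehicle values did not overlap, which held for 36.8% of all genes tested. The median log2 fold change was 0.04 over the 10 genes and -0.0012 over all genes tested. *Cd40* and *Tnfrsf9* passed the filter through their IL-1β samples and *Tnfsf11* through its vehicle samples, so these counts cannot be read as independent of the filter.

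**Figure D1:**
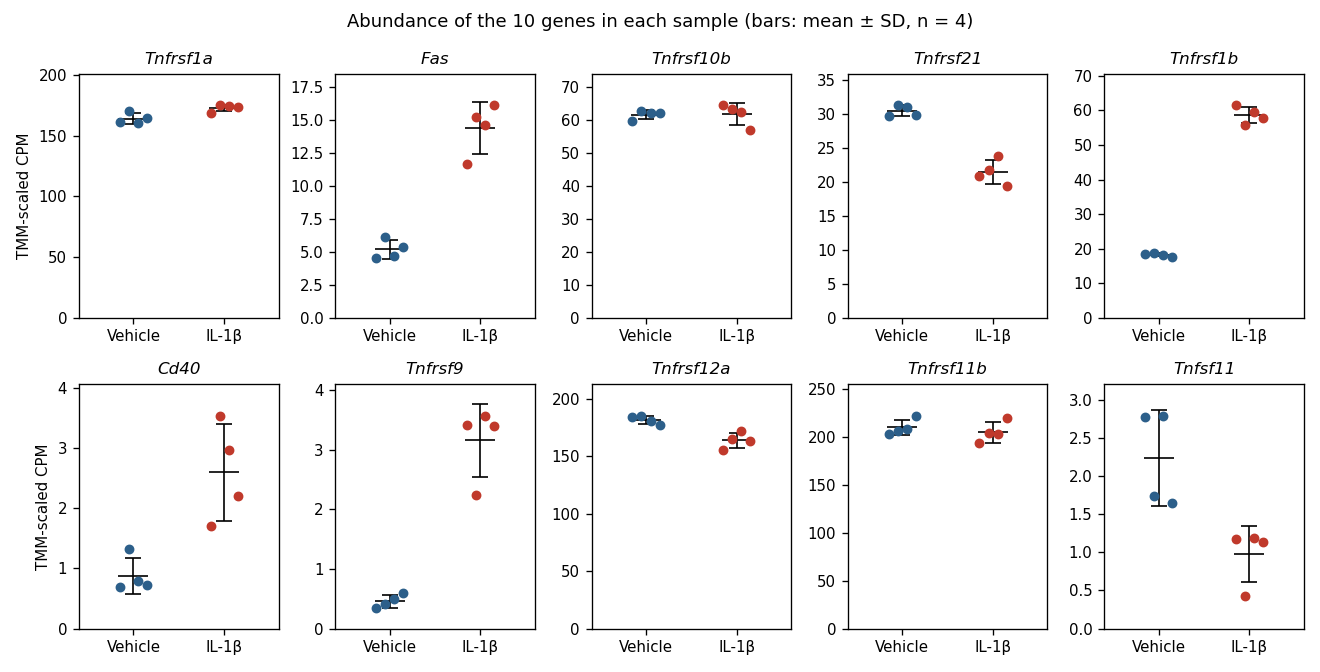
TMM-scaled CPM of each of the 10 genes (vertical axis, starting at 0, a scale of its own for each gene) in the vehicle and IL-1β samples. Points are samples and bars are the mean ± SD (n = 4); the groups are apart in *Fas*, *Tnfrsf1b*, *Cd40*, *Tnfrsf9*, *Tnfrsf21*, *Tnfrsf12a* and *Tnfsf11* and overlap in *Tnfrsf1a*, *Tnfrsf10b* and *Tnfrsf11b*.

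To show the sequence next to the called genes, the RefSeq promoter windows of the assembly GRCm38.p6 were searched on both strands for the NF-κB consensus, the AP-1 motif (TGANTCA), the TATA box (TATAAA) and the interferon-γ activated sequence, GAS (TTCNNNGAA). Windows span 250 bases before to 50 bases after a transcription start, and 7 of the 10 genes had an entry, with 8 windows. There was no entry for *Cd40*, *Tnfrsf10b* and *Tnfrsf11b*. Of all 32851 promoter windows, 4.51% held the NF-κB consensus, 7.81% the AP-1 motif, 13.6% the TATA box and 8.30% the GAS motif. The bases before the start are printed 5′ to 3′ on the strand of the gene for the 4 called genes with an entry, with motif matches in capitals. They are *Tnfrsf9*, second start (chr4:150927749-150927998, plus strand), *Fas* (chr19:34290409-34290658, plus strand), *Tnfrsf1b* (chr4:145246871-145247120, minus strand) and *Tnfsf11* (chr14:78308044-78308293, minus strand).
Tnfrsf9: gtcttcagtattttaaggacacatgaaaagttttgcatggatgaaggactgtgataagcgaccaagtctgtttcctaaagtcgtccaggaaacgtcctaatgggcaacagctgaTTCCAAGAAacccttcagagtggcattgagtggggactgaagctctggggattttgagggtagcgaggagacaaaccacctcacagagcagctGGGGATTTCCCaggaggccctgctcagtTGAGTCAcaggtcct
Fas: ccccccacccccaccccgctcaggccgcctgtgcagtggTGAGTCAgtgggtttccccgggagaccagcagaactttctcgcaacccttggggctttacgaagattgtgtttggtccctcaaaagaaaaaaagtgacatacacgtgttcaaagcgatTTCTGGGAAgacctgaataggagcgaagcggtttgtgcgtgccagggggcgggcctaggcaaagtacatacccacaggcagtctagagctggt
Tnfrsf1b: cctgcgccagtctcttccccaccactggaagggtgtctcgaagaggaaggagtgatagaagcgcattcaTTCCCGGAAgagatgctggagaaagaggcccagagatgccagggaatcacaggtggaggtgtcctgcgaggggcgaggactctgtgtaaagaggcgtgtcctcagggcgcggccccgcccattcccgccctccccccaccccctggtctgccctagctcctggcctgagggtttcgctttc
Tnfsf11: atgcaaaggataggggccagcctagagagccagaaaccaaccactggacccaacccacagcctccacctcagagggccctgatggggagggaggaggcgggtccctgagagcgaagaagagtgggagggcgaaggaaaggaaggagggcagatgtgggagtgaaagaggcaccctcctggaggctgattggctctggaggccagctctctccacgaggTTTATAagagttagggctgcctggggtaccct

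In the *Tnfrsf9* window, 2 overlapping NF-κB matches began 43 and 42 bases before the start, an AP-1 match 15 bases before it and a GAS match 136 bases before it. The window of the other annotated start of *Tnfrsf9* held none of the 4 motifs. *Fas* had an AP-1 match 211 bases and a GAS match 93 bases before the start, *Tnfrsf1b* had a GAS match 181 bases before it, and *Tnfsf11* had a TATA box match 32 bases before it, read on the opposite strand. Among the genes that were not called, *Tnfrsf1a* had a GAS match 244 bases before the start, and the windows of *Tnfrsf12a* and *Tnfrsf21* held no match. A match describes the letters of the window and not a bound site.

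Among the receptors with a death domain, *Fas* was called higher, *Tnfrsf21* was lower by less than the fold threshold, and *Tnfrsf10b* did not pass. *Fas* (ENSMUSG00000024778.13, chr19:34290666-34327772), which triggers apoptosis when bound by Fas ligand, measured 11.6, 15.2, 14.6 and 16.1 CPM in IL-1β replicates 1 to 4 and 4.50, 6.12, 4.71 and 5.39 CPM in vehicle replicates 1 to 4. The groups did not overlap, although replicate 1 was the lowest of the IL-1β samples. *Fas* rose 2.79-fold, a log2 fold change of 1.48 (SE 0.115, 95% interval 1.24 to 1.71, edgeR adjusted p = 1.11e-11).

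*Tnfrsf1a* (ENSMUSG00000030341.17, chr6:125349362-125362484) encodes TNF receptor 1, the broadly expressed receptor that carries TNF signals to both NF-κB and cell death. It measured 169.1, 175.1, 174.5 and 173.5 CPM with IL-1β against 161.5, 170.3, 160.7 and 164.4 CPM with vehicle. The groups overlapped, because IL-1β replicate 1 lay below vehicle replicate 2. The log2 fold change was 0.08 (SE 0.0299, 95% interval 0.01 to 0.14, edgeR adjusted p = 0.0439). Its adjusted p-value was 0.05 or more in 10 of 17 alternatives, with a range of 0.0172 to 0.210.

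*Tnfrsf10b* (ENSMUSG00000022074.6, chr14:69767472-69784411) encodes the mouse death receptor for TRAIL. It measured 64.3, 63.4, 62.3 and 56.8 CPM with IL-1β against 59.5, 62.5, 62.1 and 62.2 CPM with vehicle, with the lowest and the highest value both in the IL-1β group. The log2 fold change was 0.0019 (SE 0.0426, edgeR adjusted p = 0.979), and its 95% interval of -0.09 to 0.09 lies far inside the fold threshold.

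*Tnfrsf21* (ENSMUSG00000023915.5, chr17:43016555-43089189) encodes death receptor 6. It measured 20.8, 21.7, 23.7 and 19.4 CPM with IL-1β against 29.7, 31.2, 31.0 and 29.8 CPM with vehicle, so every IL-1β sample was below every vehicle sample. The log2 fold change was -0.50 (SE 0.0605, 95% interval -0.63 to -0.38, edgeR adjusted p = 7.33e-08).

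The receptors that bind TRAFs and have no death domain held the gene with the largest log2 fold change of the 10, *Tnfrsf9*, and the called gene with the tightest replicates, *Tnfrsf1b*. *Tnfrsf1b* (ENSMUSG00000028599.10, chr4:145213463-145246870) encodes TNF receptor 2, which binds TRAF2. It measured 61.5, 55.9, 59.5 and 57.7 CPM with IL-1β against 18.5, 18.7, 18.3 and 17.7 CPM with vehicle. The gap between the groups was many times the spread within either, at 58.6 ± 2.38 against 18.3 ± 0.451 CPM. *Tnfrsf1b* rose 3.20-fold, a log2 fold change of 1.68 (SE 0.0498, 95% interval 1.57 to 1.78, edgeR adjusted p = 2.00e-21).

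*Tnfrsf9* (ENSMUSG00000028965.13, chr4:150914562-150946102) encodes CD137, a costimulatory receptor known from activated T cells. It measured 3.42, 2.24, 3.56 and 3.40 CPM with IL-1β, from 31 to 60 counts, and 0.346, 0.404, 0.499 and 0.591 CPM with vehicle, from 6 to 9 counts. The vehicle values lay above 3 counts in every sample, and IL-1β replicate 2 was the lowest of its group. *Tnfrsf9* rose 6.85-fold, a log2 fold change of 2.78 (SE 0.257, 95% interval 2.25 to 3.30, edgeR adjusted p = 4.43e-10), and ranked 56 from the highest among all genes tested.

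*Cd40* (ENSMUSG00000017652.16, chr2:165055627-165072948), a receptor known from B cells, macrophages and stromal cells, measured 1.71, 3.53, 2.97 and 2.20 CPM with IL-1β, from 19 to 50 counts. With vehicle it measured 0.692, 1.33, 0.784 and 0.723 CPM, from 11 to 23 counts. The groups did not overlap, but IL-1β replicate 1 and vehicle replicate 2 came close. *Cd40* rose 2.96-fold, a log2 fold change of 1.56 (SE 0.257, 95% interval 1.04 to 2.09, edgeR adjusted p = 1.19e-05). Tested by glmTreat against a log2 fold change of 1, *Cd40* no longer passed (edgeR adjusted p = 0.145).

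*Tnfrsf12a* (ENSMUSG00000023905.15, chr17:23675445-23677468) encodes Fn14, the receptor for TWEAK. It measured 155.7, 165.1, 171.9 and 163.7 CPM with IL-1β against 184.3, 185.0, 180.8 and 177.7 CPM with vehicle, and the groups did not overlap. The log2 fold change was -0.15 (SE 0.0320, edgeR adjusted p = 0.000435), a difference past the adjusted p and far under the fold threshold.

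Because *Cd40* and *Tnfrsf9* are also made by leukocytes, marker genes of other cell types were measured in the same samples. The 10 macrophage and monocyte markers summed to 30.2 to 34.1 CPM in the IL-1β group and 15.4 to 17.3 CPM in the vehicle group, most of it from *Cd14* and *Cd68*. *Cd14* was 14.0 ± 0.428 against 3.85 ± 0.395 CPM and the only one called higher, and *Cd68* had a log2 fold change of 0.67. *Lyz2*, the other one tested, was lower with IL-1β, at 1.24 ± 0.226 against 1.86 ± 0.312 CPM with no overlap (log2 fold change -0.60, edgeR adjusted p = 0.0364). The pan-leukocyte gene *Ptprc* reached at most 0.433 CPM in any sample, *Adgre1* 0.213 CPM, *Itgam* 0.178 CPM, *Tyrobp* 0.213 CPM, *Aif1* 0.263 CPM, *Fcer1g* 0.520 CPM and *Csf1r* 1.26 CPM. The 8 lymphocyte markers summed to 0.496 to 0.811 CPM in the IL-1β group and 0.214 to 0.751 CPM in the vehicle group, with *Cd3e*, *Ms4a1* and *Nkg7* at 0 in every sample. The 5 endothelial markers summed to 0.649 to 1.25 CPM in the IL-1β group and 0.751 to 0.998 CPM in the vehicle group.

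Among markers of neighboring mesenchymal cells, some were higher and some were lower. The 5 synovial fibroblast markers summed to 2103 to 2225 CPM in the IL-1β group and 951 to 1003 CPM in the vehicle group, with most of the sum from *Prg4* alone (2011 ± 47.1 against 856 ± 21.7 CPM). The study itself read Prg4 staining of knee sections among the signs of cartilage condition. The sum is therefore not specific to synovial fibroblasts. *Prg4* and *Pdpn* were called higher and *Pdgfra* had a log2 fold change of 0.58, while *Col1a1* was 83.9 ± 5.83 against 90.1 ± 3.38 CPM and *Thy1*, under the filter, was 0.175 ± 0.190 against 0.434 ± 0.184 CPM. The 4 osteoblast markers summed to 50.0 to 58.2 CPM in the IL-1β group and 125 to 135 CPM in the vehicle group, and 3 of them were called lower. The part of these cells in the values of the 10 genes was not tested.

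**Figure D2:**
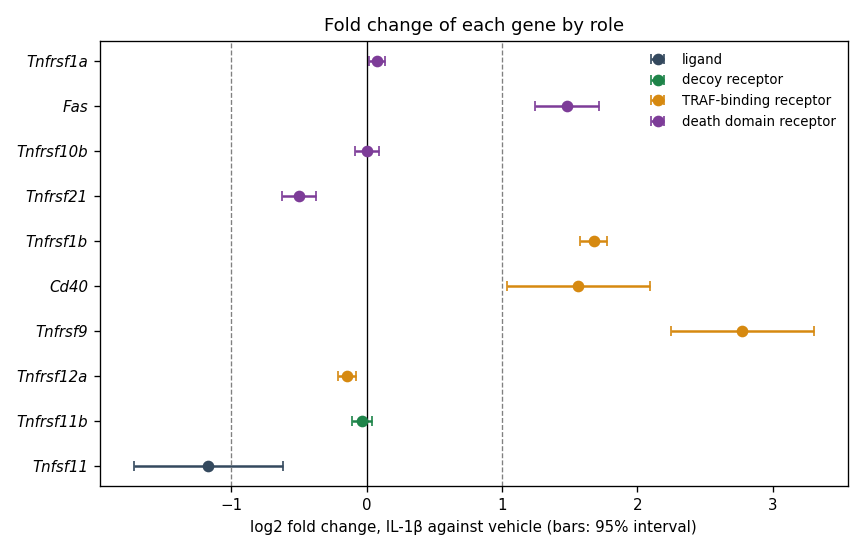
Log2 fold change of IL-1β against vehicle for each of the 10 genes, from the edgeR fit (n = 4 per group). Points are estimates, bars are 95% intervals and dashed lines mark the fold threshold; *Tnfrsf9*, *Tnfrsf1b*, *Cd40* and *Fas* lie above 1 and *Tnfsf11* lies below -1.

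Of the decoy receptor osteoprotegerin and the ligand RANKL, the ligand was called lower and the decoy receptor did not pass. *Tnfrsf11b* (ENSMUSG00000063727.3, chr15:54250619-54278484) measured 193.8, 204.3, 203.0 and 220.2 CPM with IL-1β against 203.8, 206.9, 208.8 and 221.9 CPM with vehicle, and the groups overlapped. The log2 fold change was -0.03 (SE 0.0363, 95% interval -0.11 to 0.04, edgeR adjusted p = 0.508).

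*Tnfsf11* (ENSMUSG00000022015.8, chr14:78277445-78308043) measured 1.17, 0.433, 1.19 and 1.13 CPM with IL-1β, from 6 to 20 counts, and 2.77, 1.73, 2.78 and 1.64 CPM with vehicle, from 25 to 48 counts. The groups did not overlap, with replicate 2 far below the other IL-1β samples. *Tnfsf11* was 2.25-fold lower, a log2 fold change of -1.17 (SE 0.268, 95% interval -1.72 to -0.62, edgeR adjusted p = 0.000768). Without IL-1β replicate 2 the log2 fold change was -0.93, short of the fold threshold, and the gene did not pass glmTreat against a log2 fold change of 1. The osteoclast marker *Dcstamp* was at 0 in every sample, and the 6 osteoclast markers summed to 132 to 138 CPM in the IL-1β group and 109 to 111 CPM in the vehicle group. That sum was nearly all *Ctsk* (134 ± 2.64 against 109 ± 0.852 CPM), the only one of the 6 tested, and *Acp5*, *Calcr*, *Oscar* and *Ocstamp* each stayed under 1 CPM with overlapping groups.

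For each of the 7 genes whose groups did not overlap, an exact two-sided permutation test over the 70 arrangements of the samples gave p = 0.0286, the smallest that 4 against 4 allows. That value is fixed once the groups do not overlap, so it adds no evidence beyond the lack of overlap. Groups did not overlap in 36.8% of all genes tested. For *Tnfrsf1a* the exact permutation test gave p = 0.0571.

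To compare the genes with each other, levels were expressed per kilobase of the listed exon length (RPKM, from TMM-scaled counts). With vehicle, *Tnfrsf12a* (94.2 ± 1.76), *Tnfrsf11b* (74.6 ± 2.82) and *Tnfrsf1a* (63.4 ± 1.69) had the highest RPKM. *Tnfrsf10b* (11.3 ± 0.252), *Tnfrsf21* (7.41 ± 0.189), *Tnfrsf1b* (4.79 ± 0.118) and *Fas* (2.88 ± 0.408) followed, and *Tnfsf11* (0.998 ± 0.281), *Cd40* (0.259 ± 0.0882) and *Tnfrsf9* (0.169 ± 0.0396) were the lowest. Of these neighbors in the order, *Cd40* and *Tnfrsf9* alone overlapped between samples.

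With IL-1β, the 3 most abundant genes kept their places, at 85.0 ± 3.45 RPKM for *Tnfrsf12a*, 72.9 ± 3.89 for *Tnfrsf11b* and 66.8 ± 1.04 for *Tnfrsf1a*. *Tnfrsf1b* moved from the sixth to the fourth place with 15.4 ± 0.623 RPKM, above *Tnfrsf10b* (11.3 ± 0.619), and *Fas* (7.99 ± 1.08) moved above *Tnfrsf21* (5.21 ± 0.442). *Tnfrsf9* (1.16 ± 0.227) and *Cd40* (0.764 ± 0.237) moved above *Tnfsf11* (0.439 ± 0.164), but *Cd40* overlapped with each of these neighbors. On the TPM scale the order was the same in both groups. The listed length of *Fas* is 1801 bases against 2062 exon bases in GENCODE vM21, so its RPKM depends on the annotation used.

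**Figure D3:**
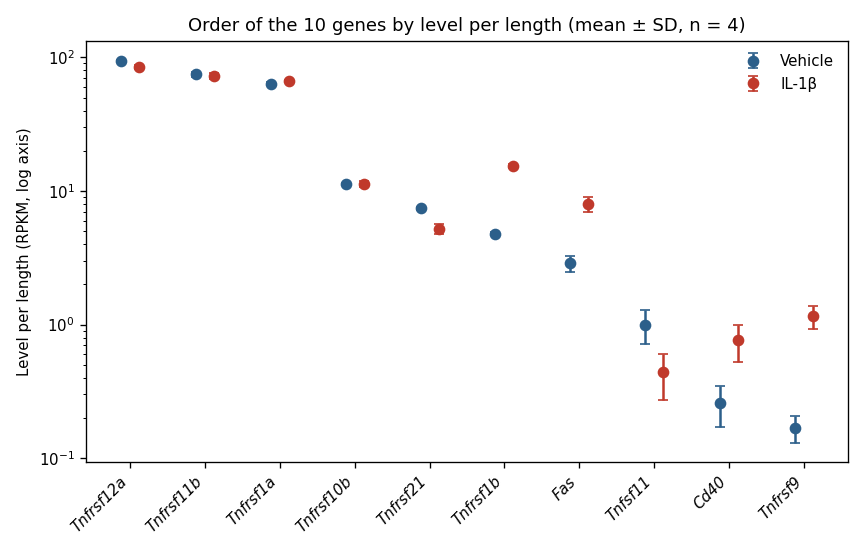
Level per length (RPKM, logarithmic axis) of the 10 genes with vehicle and with IL-1β. Points are means and bars are the SD (n = 4); *Tnfrsf12a*, *Tnfrsf11b* and *Tnfrsf1a* are the highest in both groups, and *Tnfrsf9*, *Cd40* and *Tnfsf11* change places at the bottom.

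Within a sample, the ratio of a pair of genes does not depend on normalization. Per length, *Tnfrsf1b* reached 24.7%, 21.7%, 23.1% and 22.6% of *Tnfrsf1a* in IL-1β replicates 1 to 4 and 7.78%, 7.46%, 7.71% and 7.30% in vehicle replicates 1 to 4. The mean was 23.0% ± 1.26 against 7.56% ± 0.224 (SD, n = 4), a 3.04-fold difference. *Tnfsf11* reached 0.762%, 0.267%, 0.738% and 0.649% of *Tnfrsf11b* with IL-1β and 1.71%, 1.06%, 1.68% and 0.933% with vehicle. The mean was 0.604% ± 0.230 against 1.34% ± 0.408, and the groups did not overlap in either ratio. The ratios are a description of the samples, with no test.

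**Figure D4:**
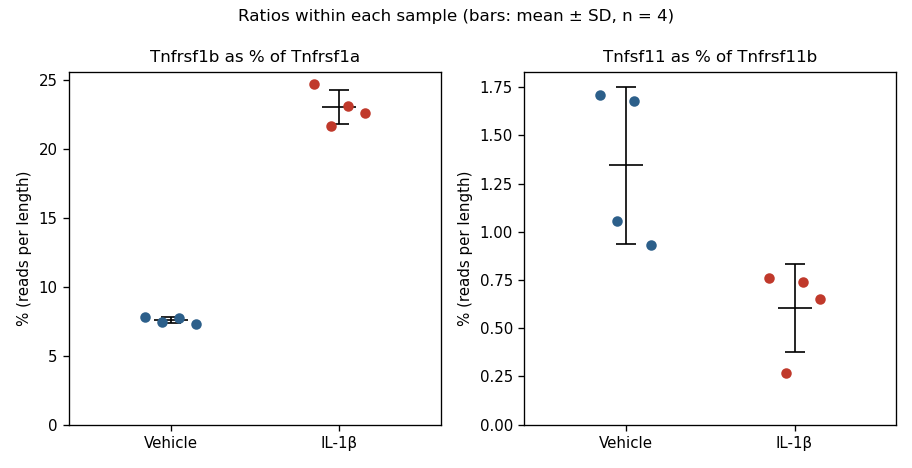
Level per length of *Tnfrsf1b* as a percent of *Tnfrsf1a*, and of *Tnfsf11* as a percent of *Tnfrsf11b* (vertical axes, starting at 0), by group. Points are samples and bars are the mean ± SD (n = 4); the first ratio was higher and the second was lower in all IL-1β samples.

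The binding partners of these receptors were mostly at or near the limit of detection. *Tnf* had 0 to 2 counts, *Lta* 0 to 4, *Tnfsf10* (TRAIL) 0 to 2 and *Tnfrsf11a* (RANK, the receptor for RANKL) 0 to 3 counts in each sample. *Fasl* had 1 count in 1 IL-1β sample and *Cd40lg* had 0 counts in all 8, so differences in these ligands were not detectable at this depth. By real-time qPCR, the study reported a rise of *Tnfα* with IL-1β in primary murine articular chondrocytes. The *Tnf* counts here are too few to set against it. *Tnfsf9*, the ligand of CD137, was 4.96 ± 0.297 CPM with IL-1β against 3.11 ± 0.483 CPM with vehicle, with no overlap (log2 fold change 0.68, SE 0.143, edgeR adjusted p = 0.000309). *Tnfsf12*, which encodes TWEAK, was 2.39 ± 0.640 against 2.35 ± 0.250 CPM (log2 fold change 0.05, edgeR adjusted p = 0.862).

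Other genes of the pathway were followed in 5 lists with 87 genes, of which 63 were tested. Of these, 5 (7.94%) were called higher and 2 (3.17%) lower, where 2.86% and 2.35% of all genes tested were, so the share called lower was near that of all genes. Without the fold threshold, 32 of the 63 (50.8%) passed, against 40.2% of all genes tested. Among the adaptors, kinases and ubiquitin enzymes near the receptors, 26 of 26 genes were tested, and 3 were called higher and 0 lower by edgeR and by DESeq2. By the adjusted p alone, 12 were higher and 2 lower (53.8% of the list, against 40.2% of all genes tested), and the median log2 fold change was 0.09. *Tnfaip3*, which encodes the NF-κB inhibitor A20, rose from 3.05 ± 0.0964 to 8.18 ± 0.761 CPM (log2 fold change 1.42, SE 0.124, edgeR adjusted p = 1.27e-10). *Traf1*, an adaptor recruited together with TRAF2, rose from 2.04 ± 0.447 to 5.11 ± 0.477 CPM (log2 fold change 1.34, SE 0.164, edgeR adjusted p = 9.40e-08). *Map3k5*, the kinase ASK1, rose from 29.7 ± 2.20 to 63.9 ± 2.56 CPM (log2 fold change 1.10, SE 0.0491, edgeR adjusted p = 3.42e-17). *Traf2* lay just under the fold threshold, at 41.6 ± 1.37 against 21.2 ± 0.452 CPM (log2 fold change 0.97).

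Of the 16 death effectors and their inhibitors, all of them tested, 1 was called higher and 1 lower. Each is 6.25% of the list, where 2.86% of all genes tested were called higher and 2.35% lower. By the adjusted p alone, 7 were higher and 2 lower (56.2% of the list, against the same 40.2%), with a median log2 fold change of 0.09. *Mlkl*, the executor of necroptosis, rose from 1.40 ± 0.289 to 3.68 ± 1.02 CPM (log2 fold change 1.35, SE 0.211, edgeR adjusted p = 5.36e-06). *Faim2*, an inhibitor of Fas-mediated apoptosis, was lower at 0.701 ± 0.0323 against 1.81 ± 0.633 CPM (log2 fold change -1.38, SE 0.282, edgeR adjusted p = 0.000212). It had 8 to 11 counts with IL-1β and 20 to 47 with vehicle. *Faim2* passed the filter only through its vehicle samples, so its call cannot be read as independent of the filter. *Bid* lay just under the fold threshold, at 37.2 ± 2.92 against 19.4 ± 2.14 CPM (log2 fold change 0.94). The initiator caspase gene *Casp8*, and *Fadd* from the list of adaptors, did not pass, with log2 fold changes of -0.13 and 0.08.

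Of the 19 other TNF receptor genes, 11 were tested, and 0 were called in either direction by edgeR or by DESeq2, with 2 at an unadjusted p under 0.05. By the adjusted p alone *Tnfrsf23* was higher (log2 fold change 0.40, edgeR adjusted p = 0.000819), and the median was -0.03. That gene is 9.09% of those tested, against 40.2% of all genes tested. Of the 17 other TNF ligand genes, 4 were tested, and 0 were called by edgeR or by DESeq2, with 2 at an unadjusted p under 0.05. By the adjusted p alone *Tnfsf9* was higher and *Tnfsf18* was lower (log2 fold change -0.95, edgeR adjusted p = 0.00488), and the median was 0.09. These 2 were 50% of those tested, against 40.2% of all genes tested. The groups of *Tnfsf18* overlapped, at 7 to 19 counts with IL-1β and 17 to 33 with vehicle. *Tnfsf18* passed the filter through its vehicle samples (1.12 to 2.00 CPM, against 0.505 to 1.13 CPM with IL-1β). The share of 50% therefore cannot be read as independent of the filter.

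Of 9 genes of the osteoclast axis that osteoblast or chondrocyte lineage cells make, 6 were tested, 1 was called higher and 1 lower. Each is 16.7% of those tested, where 2.86% of all genes tested were called higher and 2.35% lower. By the adjusted p alone, 3 were higher and 3 lower, with a median log2 fold change of -0.22. That was 100% of those tested, against 40.2% of all genes tested. *Il34*, a ligand of the CSF1 receptor, rose from 1.47 ± 0.603 to 4.53 ± 0.602 CPM (log2 fold change 1.65, SE 0.206, edgeR adjusted p = 1.37e-07). Its vehicle samples measured 0.867 to 2.28 CPM, and only its IL-1β samples were all above 1 CPM. The call of *Il34* therefore cannot be read as independent of the filter. *Sema3a*, a secreted semaphorin, was lower at 2.66 ± 0.255 against 8.06 ± 0.585 CPM (log2 fold change -1.58, SE 0.129, edgeR adjusted p = 3.05e-11). *Csf1*, the other ligand of that receptor, was 757 ± 13.7 against 714 ± 18.5 CPM (log2 fold change 0.09, edgeR adjusted p = 0.0208).

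**Figure D5:**
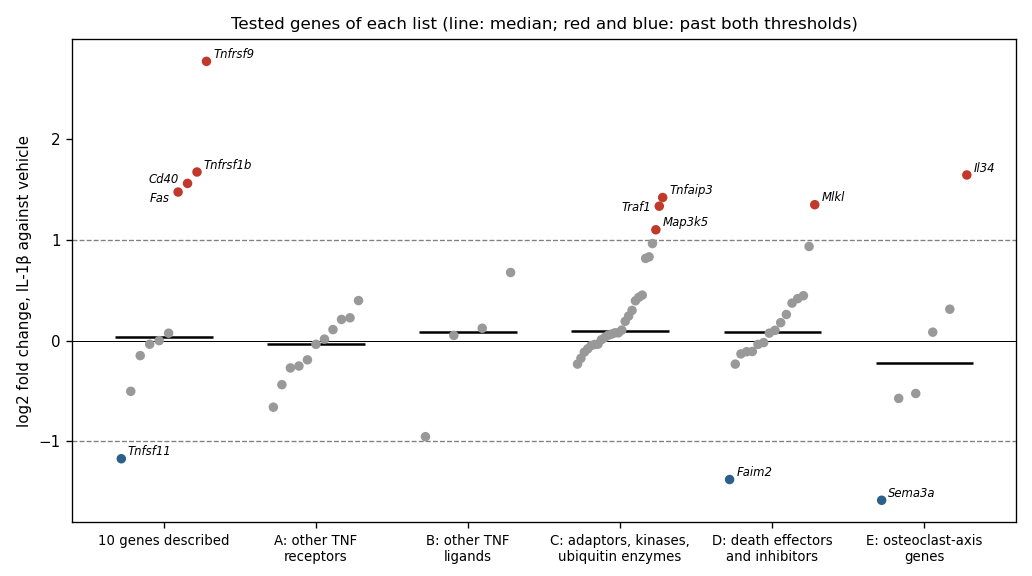
Log2 fold change of IL-1β against vehicle for the 10 genes and for the tested genes of the 5 pathway lists. Each point is a gene, lines are medians, dashed lines mark the fold threshold, and named genes are past both thresholds: 5 of the 10 genes described and 7 of the 63 genes in the lists.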

How the data were processed

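RNA-Seq covered 8 samples of murine articular chondrocytes, 4 with IL-1β and 4 with vehicle, and the labels gave the groups. The authors used cutadapt for trimming, STAR with mm10 and GENCODE vM20 for alignment, and featureCounts for counting. The submitters' processing notes give STAR 2.4.2a, and the methods give another version. The deposited values are unscaled counts of reads, 1 row for each gene symbol. The methods also name RUVseq for batch correction, but not whether it came before these counts were written, and do not state the use of strand. The authors also deposited gene lengths in bases (unit: other), used for RPKM, and no deposited column was left without a sample or measure.

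Counts were normalized by TMM and tested across all genes by the quasi-likelihood method of edgeR 4.0.16 with treatment as the only term (in R 4.3.3 with limma 3.58.1), after a filter that kept genes above 1 CPM in 4 or more samples. P-values were Benjamini-Hochberg adjusted over all genes tested. Standard errors (SE) are those of log2 fold changes, and 95% intervals use the fit's degrees of freedom. Single genes were also compared by the exact permutation test. Tables and figures used Python 3.11.15, numpy 2.4.6, pandas 2.3.3 and matplotlib 3.10.9. Positions and exon overlaps come from GENCODE vM21 of the same assembly, in which no exon base of the 10 genes lay in another gene. The code was tested on simulated data. The detection limit of 3 counts covers counting error only.

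Alternatives were DESeq2 1.42.0, scaling by its size factors or by library totals, other filters, the replicate number as a block, 1 RUVs factor, glmTreat, other thresholds, and each sample left out in turn. Scaling by library totals without Gm26917 was added after seeing the data. The named genes are the 10 genes, their binding partners, and at most 6 called genes of each pathway list by size of change, and other names were chosen after their values were seen. The genes and lists were chosen with earlier results of these data known. The miRNA-Seq and the other experiments of the study were not analysed here.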

Additional observations from a re-analysis of the deposited data

Results flagged for a closer look

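Single samples far from the other 3 of their group were sought with Dixon's outlier ratio in 40 groups of 4 values, where chance flags about 1 group in 20, and 5 groups had one. *Tnfsf11* had 0.433 CPM in replicate 2 of the IL-1β group, and the other 3 had 1.13 to 1.19 CPM. *Tnfrsf9* was 2.24 CPM in the same replicate, against 3.40 to 3.56 CPM in the others. *Cd40* was 1.33 CPM in vehicle replicate 2, against 0.692 to 0.784 CPM. *Tnfrsf10b* was 59.5 CPM in vehicle replicate 1, against 62.1 to 62.5 CPM. *Sema3a* was 8.94 CPM in vehicle replicate 4, against 7.73 to 7.84 CPM.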

How the results depend on the processing

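Of the 10 genes, 4 were called higher and 1 lower. With a CPM above 1 required in all 8 samples, *Cd40*, *Tnfrsf9* and *Tnfsf11* were not tested, which left 2 higher and 0 lower. The pathway lists then held 4 higher and 1 lower in place of 5 and 2. With edgeR's own filter (filterByExpr), and also with no filter, the lists held 7 higher and 2 lower. With glmTreat, *Cd40* and *Tnfsf11* were lost (3 higher and 0 lower), and the pathway lists held 2 higher and 1 lower in place of 5 and 2. With a log2 fold change beyond 2, 1 of the 10 genes was higher and 0 lower, and 0 pathway genes were called in either direction. By the adjusted p alone, 3 of the 10 genes were lower, and 24 pathway genes were higher and 8 lower. Leaving out each sample in turn gave 0 to 1 genes lower, with 0 only without IL-1β replicate 2, where *Tnfsf11* had a log2 fold change of -0.93 (-1.30 to -0.93 over the 8 fits).

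The estimate of *Tnfrsf10b*, never called, changed sign to -0.0033 with the RUVs factor, -0.0037 without a filter and -0.0026 with library totals, and was -0.018 to 0.040 with 1 sample left out. *Tnfsf12*, also never called, was -0.17 to 0.14 with 1 sample left out. No scaling moved the median log2 fold change of all genes by as much as 0.01. Samples with the same replicate number did not deviate together (r between -0.0653 and 0.0321 across genes). The labels do not say whether the numbers pair the samples, and a correlation across genes cannot decide it. With the replicate block, 4 genes were called higher and 1 lower, and 5 and 2 in the lists, the same counts as without it. Depth limits *Cd40*, *Tnfrsf9* and *Tnfsf11* most, with 6 to 60 counts per sample.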

Other observations

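Besides the genes tested, 2 genes of the superfamily that did not reach the filter on low counts, named after their values were seen, were higher with IL-1β. *Edar*, the ectodysplasin A receptor, was 1.25 ± 0.303 against 0.381 ± 0.274 CPM (n = 4), with no overlap between the groups (log2 fold change 1.74 and edgeR adjusted p = 1.23e-05 in the fit with no filter). *Tnfsf15*, the ligand of the receptor encoded by *Tnfrsf25*, was 1.01 ± 0.183 against 0.0782 ± 0.0839 CPM, and its vehicle samples were at or below 3 counts.

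*Tnfrsf1b* and *Tnfrsf9* both lie on chromosome 4, where 5 of the other superfamily receptors of the lists also lie. *Tnfrsf8*, the nearest of them to *Tnfrsf1b* (chr4:145267137-145315164), did not reach the filter, with a mean of 0.272 CPM after IL-1β against 0.0611 CPM, and neither did *Tnfrsf14*, at 0.777 and 0.609 CPM. *Tnfrsf25*, *Tnfrsf4* and *Tnfrsf18* were tested and did not pass, with log2 fold changes of -0.66, -0.19 and -0.27 (edgeR adjusted p = 0.0626, 0.616 and 0.245).

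The study examined *miR-146a-5p*. Seed matches to it (positions 2 to 8, or positions 2 to 7 followed by A) were sought in 3′ UTRs, using the longest coding transcript of a gene. None of the 10 genes had one (0 of 10, 3′ UTRs of 215 to 2324 bases), where 18.7% of 11783 tested genes did. The study took its predicted targets from TargetScan, by conserved sites that included shorter seed matches. The result here therefore cannot be set against the study's list of targets.

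Replicate spread was widest in the least abundant genes. The coefficient of variation was 31.0% with IL-1β and 34.0% with vehicle for *Cd40*, 37.3% and 28.2% for *Tnfsf11*, and 19.6% and 23.4% for *Tnfrsf9*.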
